A study of Mus musculus with 18 samples.

Results

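Rpl3 and Rpl3l encode alternative versions of the same ribosomal protein, and their messenger RNAs were followed in mouse calf muscle through disuse and recovery. The 2 genes were chosen by name from 54532 genes in a count table, with their pattern across the groups already known. Their own levels, fold changes and ratio are therefore given as a description, without a test. Both passed the low-count filter that left 17833 genes for testing.

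The study sequenced polyadenylated RNA from the gastrocnemius, the large calf muscle, of female C57BL/6 mice. Genotypes were Zfp697 mKO, a muscle knockout of the zinc finger gene Zfp697, and flox/flox, which carries the floxed alleles. Mice of each genotype were controls, were unloaded for 10 days, or were reloaded for 3 days, and each of the 6 groups held 3 libraries. The promoter that drives the deletion, the deleted part of the gene, and the age of the mice are not given in the sources used here. Unloading takes body weight off the hindlimb, and reloading gives it back.

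Total counts ran from 45069595 to 51592566 per library. Zfp697 stood at 1.05 to 2.47 CPM (counts scaled to a common library total with TMM factors) over the 9 libraries labelled mKO and at 0.984 to 2.79 CPM over the 9 flox/flox libraries. The groups overlapped at control and at unloading. At reloading it averaged 1.68 ± 0.247 CPM in libraries labelled mKO and 2.57 ± 0.230 CPM in flox/flox (SD, n = 3 each). These counts cover the whole gene and all cells of the muscle, so they do not check the genotype labels, and mKO below means the libraries labelled so. Adult fibre markers were high in every library: the summed level of 18 listed genes, Myh4 and Acta1 the most abundant, was 164854 to 228438 CPM over the 18 libraries.

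Ribosomal protein L3 is a core protein of the large ribosomal subunit and reaches toward the peptidyl transferase centre, where peptide bonds form. Rpl3 is used in nearly all tissues. Rpl3l takes its place in adult skeletal muscle and heart, and in mice that lack Rpl3l the Rpl3 messenger is known to rise. Skeletal muscle has another such pair in translation: Eef1a2 replaces Eef1a1, the elongation factor that delivers aminoacyl-tRNA, as fibres mature.

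The coding sequences show how the genes can be told apart by reads, and where they differ. They are written 5′ to 3′ from the GENCODE M21 annotation of GRCm38, with capitals at bases that differ between the genes in the alignment. In the first 90 coding bases, 21 positions differed. The Rpl3 stretch spans chr15:80082496-80083326 on the minus strand and the Rpl3l stretch spans chr17:24727884-24728403 on the plus strand, introns left out.
Rpl3 start: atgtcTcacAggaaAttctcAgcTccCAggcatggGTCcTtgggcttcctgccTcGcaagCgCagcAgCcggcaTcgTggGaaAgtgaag
Rpl3l start: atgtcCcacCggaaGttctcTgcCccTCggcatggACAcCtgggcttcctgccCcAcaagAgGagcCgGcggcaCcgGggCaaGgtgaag

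The ends diverged more, with 44 differing alignment columns over 90 bases of Rpl3 and 102 bases of Rpl3l. They lie at chr15:80077850-80078031 and chr17:24735797-24736056.
Rpl3 end: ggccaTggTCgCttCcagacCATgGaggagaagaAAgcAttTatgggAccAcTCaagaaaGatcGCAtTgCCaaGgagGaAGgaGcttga
Rpl3l end: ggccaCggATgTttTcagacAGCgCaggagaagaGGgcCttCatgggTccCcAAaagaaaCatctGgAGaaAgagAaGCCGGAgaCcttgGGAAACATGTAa
Over the whole coding region 897 of 1209 aligned bases were identical, or 74.2%. The Rpl3 coding sequence holds 403 codons and that of Rpl3l 407 codons, each from 10 exons. The longest identical run between them was 22 bases, and none of the 50-base windows of Rpl3 occurred in Rpl3l, so reads of that length do not pass between the members.

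Rpl3 does share sequence with pseudogenes. Of the 1302 windows of 50 bases in its main transcript, 1114 (85.6%) also occurred in annotated transcripts of 26 other genes, among them Rpl3-ps1 and Rpl3-ps2, intronless copies on the X chromosome. Rpl3-ps1 matched the Rpl3 coding sequence over an unbroken 728 bases and Rpl3-ps2 over 187 bases. For Rpl3l the count was 0 of 1326 windows. The header of the count table shows no option for reads that map to several places, and the part of such reads in the Rpl3 level was not tested. Counts assigned to those 26 genes came to 1.70% to 3.82% of the Rpl3 count in each library. Reads left uncounted would be in neither, so that percentage cannot show their part. Levels of Rpl3 against Rpl3l are therefore uncertain. Changes of one gene between groups compare the same annotated exons, and a change in its transcript forms was not tested.

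Rpl3 (ENSMUSG00000060036) lies at chr15:80077791-80091868 on the minus strand of GRCm38, with 3175 bases of annotated exon in the deposited table. The small RNA model Gm22077 shares 93 exon bases with it and had 0 counts in all 18 libraries. Reads in the shared bases may have been counted for neither gene, so that 0 cannot show their part. Snord83b and Snord43, small nucleolar RNA genes inside Rpl3 introns, had at most 7 and 2 counts in a library, and the model Gm24204 had 0. Syngr1 runs on the opposite strand within the span and shares 0 exon bases. Rpl3l (ENSMUSG00000002500) lies at chr17:24727820-24736143 on the plus strand, with 1643 bases of annotated exon and no overlapping gene. Rpl3 had 2495 to 7635 counts per library and Rpl3l 17980 to 25498 before scaling.

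Rpl3 stood near one level in control and unloaded muscle and was higher after reloading, most of all in flox/flox mice. The mKO libraries held 61.2, 61.3 and 59.9 CPM in the control group, 61.7, 56.8 and 57.9 CPM in the unloaded group, and 78.5, 104.6 and 62.9 CPM in the reloaded group. The flox/flox libraries held 66.4, 67.2 and 58.4 CPM in the control group, 61.9, 60.8 and 64.6 CPM in the unloaded group, and 150.2, 141 and 127 CPM in the reloaded group. Every reloaded flox/flox library stood above every other library of the series, and the reloaded mKO libraries spread widely between the resting level and that of flox/flox. The lowest reloaded mKO library, replicate 3, was only just above the highest mKO control and unloaded libraries.

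Mean Rpl3 in mKO muscle was 60.8 ± 0.792 CPM in controls, 58.8 ± 2.56 CPM after unloading and 82.0 ± 21.1 CPM after reloading (SD, n = 3). The flox/flox means were 64.0 ± 4.90, 62.4 ± 1.94 and 139 ± 11.9 CPM in the same order of states. From high to low, flox/flox reloading came first, then mKO reloading, then the other 4 groups, whose ranges all overlapped one another. The range of reloaded mKO muscle overlapped those of control and unloaded flox/flox muscle. Reloading against unloading gave a log2 fold change of 0.48 ± 0.12 (SE) in mKO muscle and of 1.16 ± 0.12 in flox/flox muscle, a 2.23-fold difference. The mKO value was 0.27 without replicate 2 of the reloaded group and 0.64 without replicate 3. Here and below, the SE of a gene's log2 fold change rests on a spread estimate shared by all 6 groups. It therefore does not show the wider spread of Rpl3 among the reloaded mKO libraries.

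**Figure D1:**
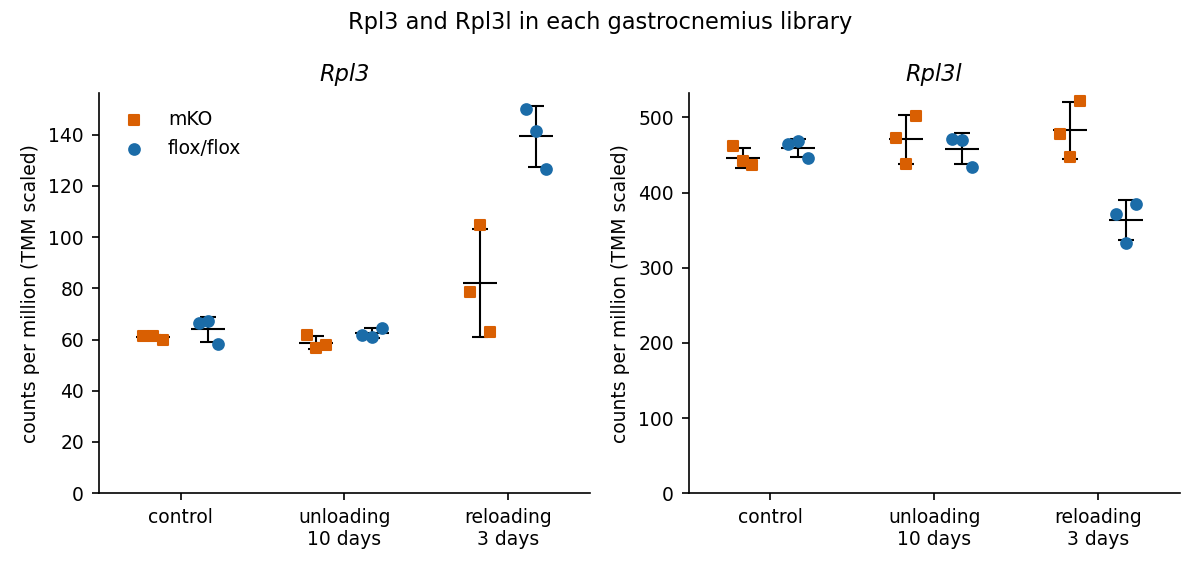
CPM of Rpl3 (left) and Rpl3l (right) in each of the 18 libraries, by loading state, with squares for mKO and circles for flox/flox. Horizontal bars are group means and whiskers 1 SD (n = 3). The flox/flox reloaded libraries are highest in Rpl3, at 127 to 150.2 CPM, and lowest in Rpl3l, at 333 to 385 CPM.

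Rpl3l, the muscle version, was lower in reloaded flox/flox muscle than in any other group, by less on the log2 scale than Rpl3 was higher, and had no such difference in mKO muscle. The mKO libraries held 462, 442 and 437 CPM in the control group, 472, 437 and 502 CPM in the unloaded group, and 478, 448 and 522 CPM in the reloaded group. The flox/flox libraries held 465, 468 and 446 CPM in the control group, 471, 469 and 434 CPM in the unloaded group, and 371, 333 and 385 CPM in the reloaded group. The 3 reloaded flox/flox libraries were below all 15 others, which ran from 434 to 522 CPM, and the other 5 groups overlapped.

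Mean Rpl3l in mKO muscle was 447 ± 13.3 CPM in controls, 471 ± 32.4 CPM after unloading and 483 ± 37.6 CPM after reloading (SD, n = 3). The flox/flox means were 460 ± 11.98, 458 ± 20.9 and 363 ± 26.9 CPM. Reloading against unloading gave a log2 fold change of 0.04 ± 0.08 in mKO muscle and of -0.34 ± 0.08 in flox/flox muscle. Against control the reloading values of Rpl3l were 0.11 ± 0.08 in mKO muscle and -0.34 ± 0.08 in flox/flox muscle, and those of Rpl3 were 0.43 ± 0.12 and 1.12 ± 0.12. The Rpl3 value in mKO muscle against control was 0.22 without replicate 2 of the reloaded group and 0.59 without replicate 3.

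The level of each gene by itself overlapped between unloaded and control muscle. Against control, Rpl3 had a log2 fold change of -0.05 ± 0.12 in mKO muscle and -0.04 ± 0.12 in flox/flox muscle, and Rpl3l had 0.08 ± 0.08 and 0.00 ± 0.08. The overlap held for both genes in both genotypes.

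The genotypes parted at reloading. There Rpl3 was lower in mKO than in flox/flox muscle by a log2 fold change of -0.77 ± 0.12, and Rpl3l was higher by 0.41 ± 0.08, with no overlap between the genotypes for either gene. In this comparison 1.06% of all tested genes were called higher and 3.85% lower by the edgeR test, a measure unlike overlap. The share of all genes without overlap was not computed. Without replicate 2 of the reloaded mKO group the Rpl3 difference was -0.98, and without replicate 3 it was -0.61. At control the mKO minus flox/flox differences were -0.07 ± 0.12 for Rpl3 and -0.04 ± 0.08 for Rpl3l, and at unloading they were -0.09 ± 0.12 and 0.04 ± 0.08, with overlapping libraries. The difference between the genotypes in the reloading minus unloading change was -0.68 ± 0.17 for Rpl3 and 0.37 ± 0.11 for Rpl3l on the log2 scale. For that difference edgeR called 0 of the 17833 tested genes and DESeq2 called 165.

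The balance of the pair was taken as the ratio of CPM per kilobase of exon, Rpl3l over Rpl3, which does not depend on how libraries are scaled. In the 12 control and unloaded libraries it ran from 12.99 to 16.8. At reloading the libraries held 11.8, 8.27 and 16.1 in mKO muscle, and 4.78, 4.55 and 5.87 in flox/flox muscle. All 3 reloaded flox/flox libraries were below the rest, replicate 3 of the reloaded mKO group lay inside the range of unreloaded muscle, and replicates 1 and 2 of that group lay between.

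The unloaded mKO libraries, at 14.8 to 16.8, were all above the mKO controls, at 13.9 to 14.6, with a log2 ratio difference of 0.12 ± 0.06, while the flox/flox groups overlapped.

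Group means of the ratio in mKO muscle were 14.2 ± 0.335 at control, 15.5 ± 1.10 at unloading and 12.03 ± 3.904 at reloading (SD, n = 3). For flox/flox they were 13.9 ± 0.736, 14.2 ± 1.06 and 5.07 ± 0.706. The log2 ratio changed at reloading against unloading by -0.41 ± 0.28 in mKO muscle (SE from the group SDs; -0.17 without replicate 2 and -0.65 without replicate 3 of the reloaded group), and by -1.49 ± 0.13 in flox/flox muscle. At reloading the log2 ratio was higher in mKO than in flox/flox muscle by 1.20 ± 0.30.

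Expressed as a share of the summed per-kilobase level of both genes, Rpl3 made up 7.84%, 10.8% and 5.86% in the reloaded mKO libraries, against 17.3%, 18.02% and 14.6% in the reloaded flox/flox libraries. In the 12 control and unloaded libraries the share was 5.63% to 7.15%. Rpl3l had the higher level of the pair in every library on this scale. If reads that map to several places were left uncounted, Rpl3 would be understated against Rpl3l, which was not tested. The exon length of Rpl3 in the deposited table covers more than 1 transcript form, and dividing by the length of the main coding transcript of each gene (1351 and 1375 bases) gave lower mean ratios. These were 6.12 in reloaded mKO muscle and 2.58 in reloaded flox/flox muscle.

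**Figure D2:**
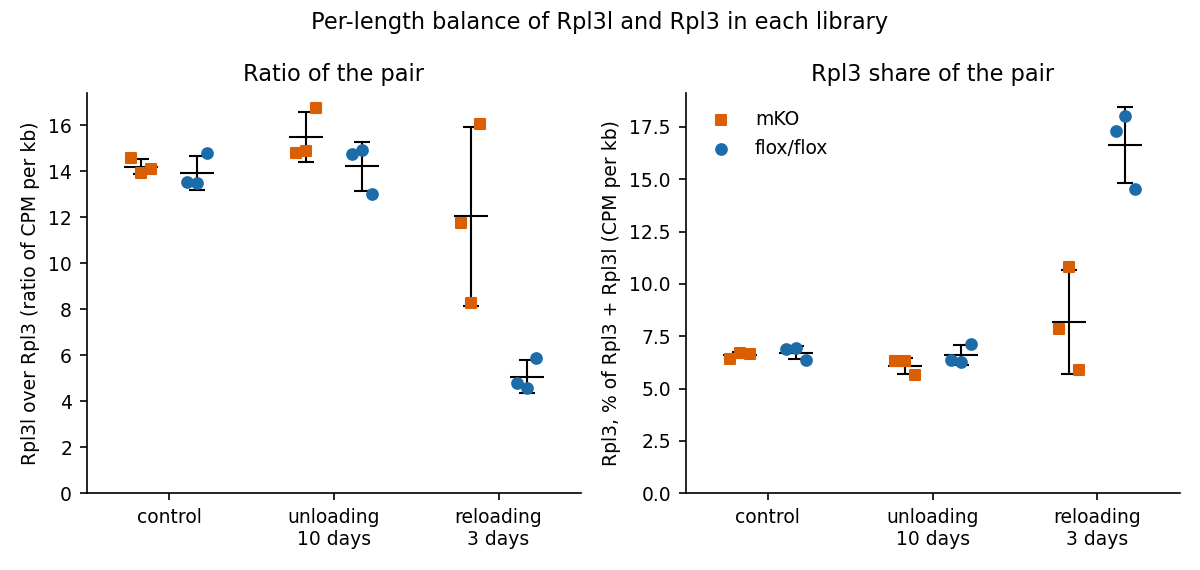
Rpl3l over Rpl3 as a ratio of CPM per kilobase (left) and Rpl3 as a percentage of both (right) in each library, squares for mKO and circles for flox/flox. Bars are group means and whiskers 1 SD (n = 3); the reloaded flox/flox libraries have ratios of 4.55 to 5.87 and the reloaded mKO libraries of 8.27 to 16.1.

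Within a group, the library that was highest in Rpl3 was lowest in Rpl3l in 2 of the 6 groups. Unrelated orders of 3 libraries a group would give that number on average. The groups were unloaded flox/flox, where replicate 3 had 64.6 CPM of Rpl3 and 434 CPM of Rpl3l, and reloaded mKO. In reloaded mKO muscle replicate 2 had 104.6 CPM of Rpl3 and 448 CPM of Rpl3l, while replicate 3 had 62.9 and 522 CPM.

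Among the other cytosolic ribosomal protein genes, 78 were listed and all were tested. Per kilobase, 70 of the 78 stood above Rpl3 in reloaded mKO muscle and 62 in reloaded flox/flox muscle, against 73 in unloaded muscle of each genotype. At control 73 stood above it in mKO and 70 in flox/flox muscle, so the flox/flox control count was also that of reloaded mKO muscle. These counts rest on the 3175 bases of exon in the deposited table; over the 1351 bases of its main coding transcript Rpl3 would have a higher level. Rpl3l was exceeded by 4 of the 78 in reloaded mKO muscle and by 6 in reloaded flox/flox muscle. Many of these genes also have processed pseudogenes, whose part in the levels was not tested.

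Most of the other ribosomal protein genes did not pass the test where Rpl3 moved. From unloading to reloading in mKO muscle, 1 of 78 rose and 3 fell at an edgeR quasi-likelihood adjusted p under 0.05, where 9.53% of all tested genes rose and 8.81% fell. Those that fell were Rpl4 at -0.34 ± 0.07, Rpl22 at -0.29 ± 0.08 and Rps14 at -0.29 ± 0.08 (adjusted p = 0.00446, 0.0135 and 0.0175), and Rpsa, a small subunit protein that also acts as a laminin receptor, rose by 0.22 ± 0.07 (adjusted p = 0.0400). Of these 4 calls only that of Rpl4 was made in each of the 6 fits that left out 1 library of the comparison. The change of Rpl3 in mKO muscle, 0.48, was above those of 77 of the 78 genes, below that of Rps10 at 0.76, which was not called. In flox/flox muscle 13 of 78 were called, 8 higher and 5 lower, where 31.9% of all tested genes were called in either direction (17.002% higher and 14.9% lower). Scaled by total counts, which shifts the median of all genes by 0.11 here, 15 of the 78 were called higher and 0 lower. The list's median log2 fold change was -0.05 in mKO and 0.04 in flox/flox muscle, beside 0.01 and 0.00 for all tested genes.

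The ribosomal protein genes with the largest called changes in flox/flox muscle were Rpl13a at 0.43 ± 0.14 (adjusted p = 0.0232), Rps12 at 0.41 ± 0.08 (adjusted p = 0.00117) and Rpl5 at 0.34 ± 0.08 (adjusted p = 0.00342). Rpl5 and Rpl11, which enter the large subunit together with a small ribosomal RNA, both rose, Rpl11 by 0.27 ± 0.07 (adjusted p = 0.00589). Rpsa rose by 0.34 ± 0.07 (adjusted p = 0.00149) and Rps15a by 0.30 ± 0.10 (adjusted p = 0.0223). Only 4 of the 13 calls, Rpl5, Rpl11, Rps12 and Rpsa, were made in each of the 6 fits that left out 1 library of the comparison. The change of Rpl3, 1.16, was above those of all 78 other genes.

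Against control, reloading in mKO muscle called 2 ribosomal protein genes higher and 0 lower, where 1.34% of all tested genes were called higher and 0.841% lower: Rps12 at 0.39 ± 0.08 and Rpsa at 0.28 ± 0.07 (adjusted p = 0.0204 and 0.0492). In flox/flox muscle 18 rose and 0 fell, where 12.3% of all genes rose and 10.3% fell, with a list median of 0.16 beside 0.00 for all genes. Rps12 rose by 0.60 ± 0.08, Rps15a by 0.50 ± 0.10 and Rpl12 by 0.44 ± 0.08 (adjusted p = 7.32e-05, 0.00107 and 0.00113). Rpl3's change of 1.12 was again above those of all 78. The count of 18 became 46 when libraries were scaled by total counts, which shifts the median of all genes by 0.15 in this comparison, and 10 to 16 when 1 library was left out, with 9 of the 18 called in each such fit. Neither mKO call was made in each of them.

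Unloading against control called 1 ribosomal protein gene as higher in mKO muscle, where 4.09% of all genes rose and 3.66% fell, and 2 as higher in flox/flox muscle, where 2.67% rose and 3.07% fell. Rpl4, a large subunit protein that lines the exit tunnel, rose by 0.37 ± 0.07 in mKO and by 0.30 ± 0.07 in flox/flox muscle (adjusted p = 0.00663 and 0.0235), and Rps27 rose by 0.37 ± 0.09 in flox/flox muscle (adjusted p = 0.0210). Without 1 library the mKO call of Rpl4 remained in each of 6 fits, and neither flox/flox call did. The values of Rpl3 and Rpl3l in these comparisons lay between -0.05 and 0.08.

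Between genotypes at reloading, no ribosomal protein gene of the 78 passed in mKO against flox/flox muscle, where 1.06% of all tested genes were higher and 3.85% lower. By edgeR 1 of the 78 had an unadjusted p under 0.05, and DESeq2 called 0. Scaled by total counts, which shifts the median of all genes by -0.13 here, 6 were called lower. The difference of Rpl3, -0.77, was below those of all 78 and that of Rpl3l, 0.41, above those of all 78, of which the highest was 0.11 (Rpl35). The 2 most abundant listed genes, Rplp0 of the ribosomal stalk and Rpl4, had differences of 0.00 ± 0.08 and -0.04 ± 0.07 (adjusted p = 0.9996 and 0.836). At control and at unloading edgeR called no gene of the series between the genotypes, so 0% was the background there; 718 and 816 of 17833 genes had an unadjusted p under 0.05, and DESeq2 called 1 and 0 genes.

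**Figure D3:**
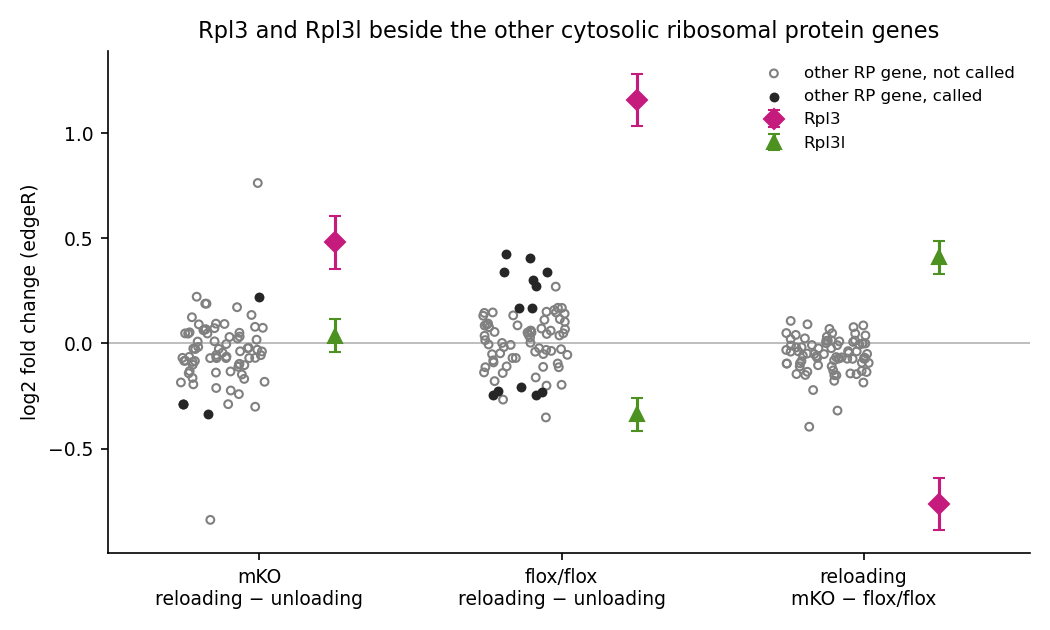
Log2 fold change of Rpl3 (diamonds), Rpl3l (triangles) and 78 other cytosolic ribosomal protein genes (dots, filled where the edgeR adjusted p is under 0.05) in 3 comparisons. Whiskers on the pair are SE from the fit of 18 libraries. Rpl3 stands at 0.48, 1.16 and -0.77 and Rpl3l at 0.04, -0.34 and 0.41.

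Other ribosomal proteins with paralogues were listed beside the pair. Of 7 such paralogues 5 were tested, and Rpl10l, at 0 counts in all libraries, and Rpl39l, with at most 14 counts, were too low. Rpl22l1, the paralogue of Rpl22, had 45.1, 37.9 and 43.1 CPM in reloaded mKO muscle, against 26.9, 37.1 and 29.3 CPM in unloaded mKO muscle. The flox/flox libraries had 35.5, 44.9 and 47.6 CPM at reloading, against 24.99, 29.0 and 38.3 CPM at unloading. Its change was 0.43 ± 0.15 in mKO muscle, which did not pass (adjusted p = 0.0569), and it rose by 0.47 ± 0.15 in flox/flox muscle (adjusted p = 0.0247; 0.135 without replicate 1 of the unloaded group).

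Against control Rpl22l1 had a change of 0.51 ± 0.15 in mKO muscle, which did not pass (adjusted p = 0.0927), and rose by 0.83 ± 0.15 in flox/flox muscle (adjusted p = 0.000903). Between genotypes at reloading it differed by -0.02 ± 0.15 (adjusted p = 0.963). Rps4l rose in flox/flox muscle against control by 0.76 ± 0.26 (adjusted p = 0.0400; 0.147 without replicate 1 of the reloaded group) at a level of 1.19 to 3.43 CPM over all libraries. Rpl7l1, Rps27l and Rpl36al passed in none of the comparisons described.

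Grwd1, whose yeast counterpart escorts newly made Rpl3 into ribosomes, and Mettl18, which in human cells methylates Rpl3, were examined as partners of the protein. Grwd1 averaged 17.6 ± 2.45 CPM in reloaded mKO muscle and 14.3 ± 3.09 CPM in reloaded flox/flox muscle (SD, n = 3 each), a difference of 0.30 ± 0.14 that did not pass (adjusted p = 0.244). Mettl18 averaged 3.21 ± 0.470 and 3.14 ± 0.476 CPM in those groups (difference 0.03 ± 0.16, adjusted p = 0.950). Reloading against unloading gave 0.28 ± 0.14 and -0.05 ± 0.14 for Grwd1 and -0.18 ± 0.16 and -0.03 ± 0.16 for Mettl18 in mKO and flox/flox muscle, and none of these passed.

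Of 50 genes of ribosome assembly and ribosomal RNA synthesis 49 were tested. Reloading against unloading called 0 higher and 6 lower in mKO muscle, and 1 higher and 7 lower in flox/flox muscle. The lower share, 12.2% of the list in mKO and 14.3% in flox/flox muscle, stood beside 8.81% and 14.9% of all tested genes. In mKO muscle Wdr43 fell by 0.38 ± 0.10, Nop14 by 0.38 ± 0.07 and Nob1 by 0.37 ± 0.11 (adjusted p = 0.0162, 0.00209 and 0.0203). In flox/flox muscle Nob1, the nuclease that finishes the small subunit's ribosomal RNA, fell by 0.43 ± 0.11, Rrs1 by 0.39 ± 0.14 and Gnl2 by 0.31 ± 0.07 (adjusted p = 0.00471, 0.0415 and 0.00347). The list median was -0.04 in each genotype, beside 0.01 and 0.00 for all genes. Under total-count scaling the 7 lower calls in flox/flox muscle became 0. Of the 6 mKO and 8 flox/flox calls, 1 and 4 were made in each fit that left out 1 library. Between genotypes at reloading 0 passed by edgeR and by DESeq2, with 4 at an unadjusted edgeR p under 0.05.

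Of 32 translation factors, all tested, 3 rose and 11 fell in mKO muscle, and 6 rose and 14 fell in flox/flox muscle, from unloading to reloading. The share that rose, 9.38% in mKO and 18.8% in flox/flox muscle, stood beside 9.53% and 17.002% of all tested genes, and the share that fell, 34.4% and 43.8%, beside 8.81% and 14.9%. Eif4ebp1, which holds back the cap-binding factor Eif4e, fell by 1.01 ± 0.22 in mKO and 0.98 ± 0.22 in flox/flox muscle (adjusted p = 0.00373 and 0.00227). Eif4b, a helper of the initiation helicase, fell by 0.74 ± 0.09 in each (adjusted p = 6.34e-05 and 1.57e-05), and Eef2, which moves the ribosome along the messenger, by 0.65 ± 0.11 and 0.64 ± 0.11 (adjusted p = 0.000518 and 0.000243). The list median was -0.14 in each genotype, and 9 of the 14 mKO calls and 12 of the 20 flox/flox calls were made in each fit that left out 1 library. Unloading against control called 7 higher and 0 lower in mKO muscle (beside 4.09% and 3.66% of all tested genes). In flox/flox muscle it called 2 higher and 1 lower (beside 2.67% and 3.07%). Reloading against control called 0 higher and 1 lower in mKO muscle (beside 1.34% and 0.841%). In flox/flox muscle it called 3 higher and 9 lower (beside 12.3% and 10.3%).

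The elongation factor pair Eef1a1 and Eef1a2 was not among the chosen members, and it was tested. Its list was chosen with earlier results of these data known, so its p-values are not independent of that choice. The part of Eef1a1 pseudogenes in the Eef1a1 counts was not tested. At reloading, Eef1a1 held 465, 415 and 387 CPM in mKO muscle, against 568, 686 and 627 CPM in flox/flox muscle. Eef1a2, the version of adult muscle, held 1688, 1345 and 1771 CPM in mKO muscle, against 1001, 1178 and 1241 CPM in flox/flox muscle. The genotypes did not overlap for either gene, with the general version lower and the muscle version higher in mKO. How many of all genes lacked overlap was not computed. The edgeR test called 1.06% of all tested genes higher and 3.85% lower in this comparison, a measure unlike overlap.

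The mKO minus flox/flox difference at reloading was -0.57 ± 0.09 for Eef1a1 (adjusted p = 0.00236) and 0.49 ± 0.12 for Eef1a2 (adjusted p = 0.0233). Besides Eif4a1, the initiation helicase, at -0.35 ± 0.10 (adjusted p = 0.0409), these were the only listed translation factors called between genotypes. Eef1a1 was called in each of the 6 fits that left out 1 library of the comparison, with a highest adjusted p of 0.0279. Eef1a2 and Eif4a1 were called in 2 of the 6 each, with highest adjusted p of 0.147 and 0.236, both without replicate 3 of the reloaded mKO group.

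Across loading states the elongation factor pair was set beside the Rpl3 pair. For Eef1a1, reloading against unloading gave a log2 fold change of 0.10 ± 0.09 in mKO muscle (adjusted p = 0.494) and a rise of 0.58 ± 0.09 in flox/flox muscle (adjusted p = 0.000124). Eef1a2 rose by 0.41 ± 0.12 in mKO muscle (adjusted p = 0.0222) and had 0.09 ± 0.12 in flox/flox muscle (adjusted p = 0.597), where it had already fallen by 0.48 ± 0.12 at unloading against control (adjusted p = 0.0235). Each of these Eef1a2 calls was lost when 1 library was left out, at an adjusted p of 0.122 without replicate 1 of the unloaded group of the same genotype. The test of whether the reloading minus unloading change differed between genotypes did not pass for Eef1a1 (-0.48 ± 0.13, adjusted p = 0.176) or for Eef1a2 (0.32 ± 0.17, adjusted p = 0.523). By edgeR that test called 0 of the 17833 tested genes.

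As a per-kilobase ratio, Eef1a2 over Eef1a1 averaged 3.99 ± 0.0520 at control, 3.69 ± 0.641 at unloading and 4.57 ± 0.822 at reloading in mKO muscle (SD, n = 3). The flox/flox averages were 4.17 ± 0.303, 3.08 ± 0.582 and 2.18 ± 0.168. At reloading the mKO libraries, from 3.88 to 5.48, were all above the flox/flox libraries, from 2.06 to 2.37. The flox/flox mean of this ratio was lower at unloading than at control, a step that the Rpl3l to Rpl3 ratio did not show.

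**Figure D4:**
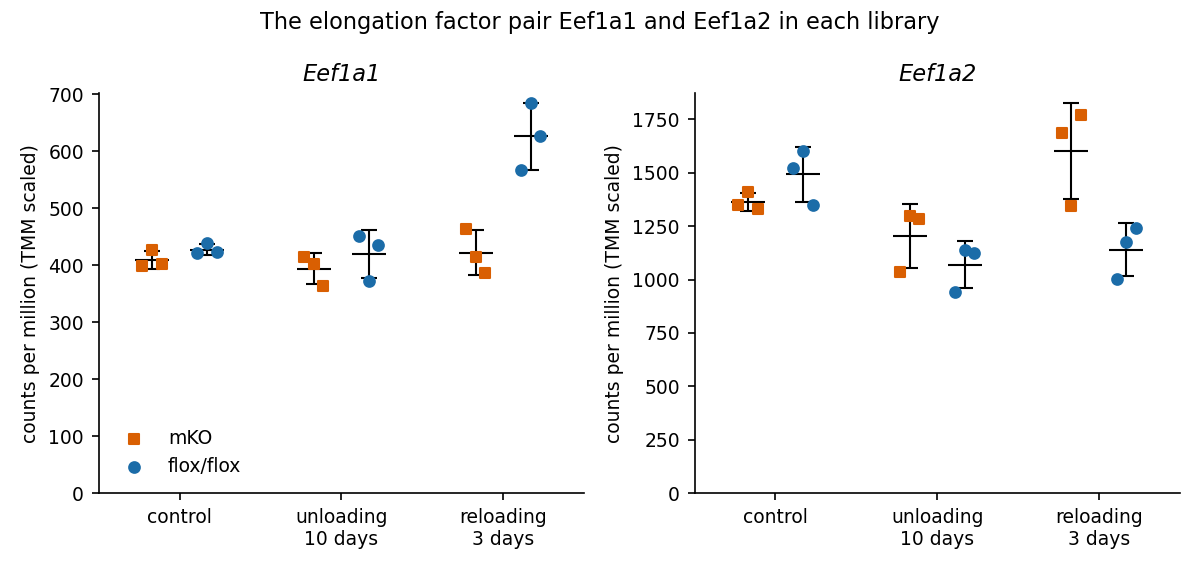
CPM of Eef1a1 (left) and Eef1a2 (right) in each library, squares for mKO and circles for flox/flox, with group means and 1 SD (n = 3). At reloading the mKO libraries hold 387 to 465 CPM of Eef1a1 and 1345 to 1771 CPM of Eef1a2, and the flox/flox libraries 568 to 686 and 1001 to 1241 CPM.

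Ribosomal proteins of the mitochondrion, which belong to another ribosome, were set beside the cytosolic ones. Of 47 listed genes 46 were tested, and from unloading to reloading 15 rose in mKO and 9 in flox/flox muscle, with 0 falling in either. These were 32.6% and 19.6% of the list, beside 9.53% and 17.002% of all tested genes that rose. Mrpl19 rose by 0.64 ± 0.09 in mKO and 0.50 ± 0.09 in flox/flox muscle (adjusted p = 0.000173 and 0.000529). Mrpl39 at 0.59 ± 0.09 and Mrpl45 at 0.55 ± 0.08 followed in mKO muscle (adjusted p = 0.000189 and 0.000253), and Mrpl48 at 0.42 ± 0.09 and Mrpl36 at 0.40 ± 0.12 in flox/flox muscle (adjusted p = 0.00167 and 0.0171). Leaving out 1 library kept 8 of the 15 mKO calls and 4 of the 9 flox/flox calls in every fit. Unloading against control called 0 higher, with 7 lower in mKO and 5 in flox/flox muscle. These were 15.2% and 10.9% of the list, beside 3.66% and 3.07% of all tested genes that fell, and 1 call in each genotype held in every fit. Reloading against control called 0 in mKO muscle. In flox/flox muscle it called 0 higher and 4 lower (8.70%), beside 12.3% and 10.3% of all tested genes. Between genotypes at reloading edgeR called 0 of the 46, with 11 at an unadjusted p under 0.05, and DESeq2 called 1.

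A search covered 7682 genes that averaged 10 CPM or more, with unnamed genes and clone or model names left out. The genes whose 6 group means were most like those of Rpl3 were taken by the root mean square difference of centred log2 CPM. They were Itga5, an integrin subunit for fibronectin, at 0.05, Ankrd13a at 0.07, Tuba1b, a tubulin, at 0.09, Msn, which links actin to the membrane, at 0.09, and the chaperone Hsp90aa1 at 0.10. Reloading against unloading, Itga5 changed by 0.43 in mKO and 1.30 in flox/flox muscle on the log2 scale, and Hsp90aa1 by 0.56 and 1.20. None of the 5 is a ribosomal protein gene. This follows from the values above, since the highest flox/flox change among the 78 others was 0.43, against 1.16 for Rpl3. For Rpl3l the nearest were Vdac3-ps1, a pseudogene of a mitochondrial channel, at 0.03, and Faap100, Hrasls, Hivep2 and the kinase gene Rps6ka2 at 0.04 each. Their changes in flox/flox muscle lay between -0.29 and -0.39, a small range in which many genes lie close together. In flox/flox muscle 94.1% of tested genes had a smaller reloading minus unloading change than Rpl3, and 20.6% a smaller one than Rpl3l.

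**Figure D5:**
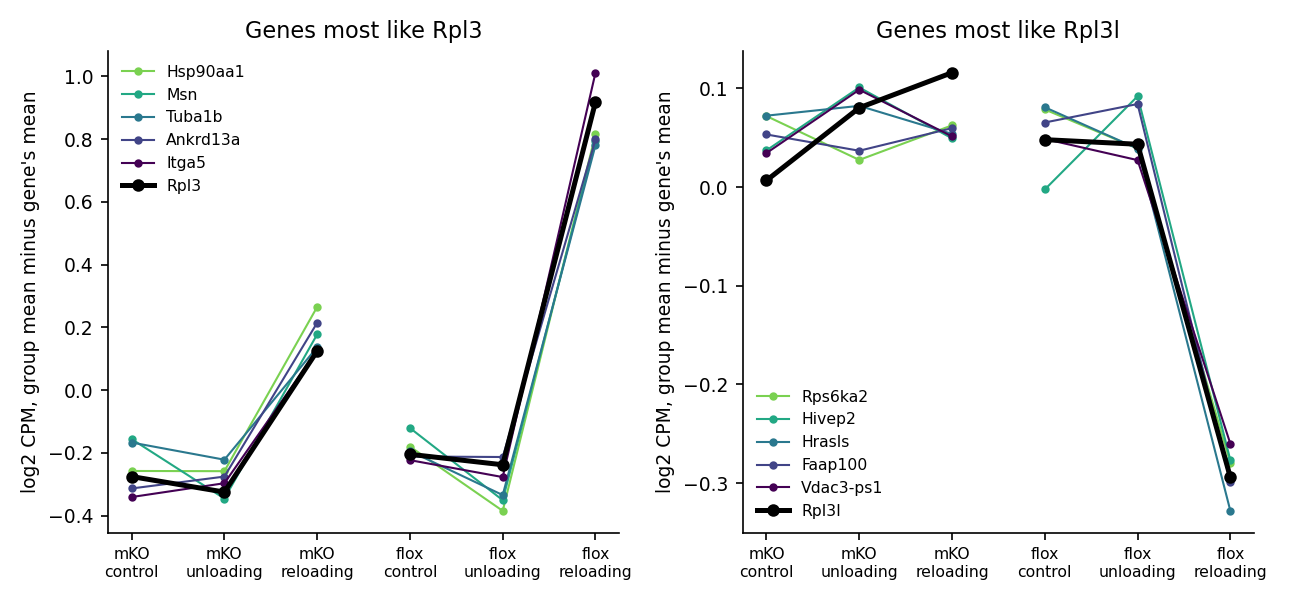
Group means of log2 CPM, centred on each gene's mean over the 6 groups, for Rpl3 (left, black) and Rpl3l (right, black) with the 5 genes most like each; lines join the loading states of 1 genotype, and mKO is drawn left of flox. In the left panel the 5 genes change by 0.37 to 0.56 in mKO and by 1.01 to 1.30 in flox/flox muscle between unloading and reloading.

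Markers of other cells were measured beside Rpl3. In whole muscle, fewer cells of a type and less RNA per cell cannot be told apart. The counts of called markers stand beside 9.53% of all tested genes that rose and 8.81% that fell in mKO muscle from unloading to reloading, 17.002% and 14.9% in flox/flox muscle, and 1.06% higher and 3.85% lower in mKO at reloading. Of 15 macrophage markers, 6 rose in mKO and 14 in flox/flox muscle from unloading to reloading, and 12 were lower in mKO than in flox/flox muscle at reloading, with 0 in the opposite direction. Their summed level was 185, 238 and 167 CPM in the reloaded mKO libraries, against 394, 509 and 337 CPM in the reloaded flox/flox libraries. In unloaded muscle it was 107 to 164 CPM in mKO and 153 to 184 CPM in flox/flox. Lyz2 and Mrc1, the most abundant of them, differed between mKO and flox/flox at reloading by -1.04 ± 0.18 and -0.80 ± 0.14 (adjusted p = 0.00394 and 0.00442). In the reloaded mKO group the macrophage sum had the same order of libraries as Rpl3, as did the fibroblast sum below. In the reloaded flox/flox group replicate 2 was highest in the macrophage sum and replicate 1 in Rpl3. No listed marker was at 0 in any group.

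Of 13 fibroblast markers, 8 rose in mKO and 10 in flox/flox muscle from unloading to reloading, 1 fell in flox/flox muscle, and 4 were lower in mKO than in flox/flox muscle at reloading. Their sum was 2587 to 3146 CPM in reloaded mKO and 3421 to 4968 CPM in reloaded flox/flox muscle, against 1166 to 1536 and 1342 to 1597 CPM in unloaded muscle. Dcn and Col1a2 were the most abundant of them, and neither passed between genotypes at reloading (0.05 ± 0.13 and -0.16 ± 0.23). At control the fibroblast sum was 2294 to 3047 CPM in mKO and 2220 to 2737 CPM in flox/flox muscle, above that of unloaded muscle. Of 10 endothelial markers, 3 rose in mKO and 6 in flox/flox muscle from unloading to reloading, and 2 were lower in mKO at reloading, among them Pecam1 at -0.48 ± 0.07 (adjusted p = 0.00138); Cdh5, the other of the most abundant pair, had -0.22 ± 0.08 (adjusted p = 0.120).

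Of 13 markers of regenerating fibres, 5 rose in mKO and 6 in flox/flox muscle from unloading to reloading, 1 fell in flox/flox muscle, and 2 were lower in mKO at reloading. Their sum was 221, 286 and 256 CPM in the reloaded mKO libraries and 302, 293 and 262 CPM in the reloaded flox/flox libraries, with overlapping genotypes, against 198 to 242 and 199.9 to 304 CPM in unloaded muscle. The most abundant of them, Myh8 and Myf6, passed in none of these comparisons. Myog, a regulator of muscle differentiation named here after its values were seen, held 7.70, 18.1 and 7.19 CPM in the reloaded mKO libraries, against 29.5, 23.6 and 17.9 CPM in the reloaded flox/flox libraries, and 4.37 to 7.42 CPM in all others. Within each reloaded group its libraries had the order of Rpl3, which those of the list's sum did not have in mKO muscle. This match of a gene picked by its values, over 3 libraries a group, was not tested. Of the 18 adult fibre markers, 3 rose and 1 fell in mKO muscle, 2 rose and 8 fell in flox/flox muscle, and 4 were higher in mKO than in flox/flox muscle at reloading. Their sum was 218086, 189625 and 228438 CPM in reloaded mKO and 164854, 167890 and 186641 CPM in reloaded flox/flox libraries. In both groups that is the reverse of the Rpl3 order. Macrophage and fibroblast sums had the Rpl3 order in reloaded mKO muscle but not in reloaded flox/flox muscle, and the endothelial sum in neither. Such orders of 3 libraries were not tested. The part of cell makeup in the Rpl3 and Rpl3l values was not tested.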

How the data were processed

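RNA of 18 gastrocnemius libraries was read from 1 deposited table of raw counts per gene, summed over exons. Per the submitters' processing notes, STAR 2.7.3a, GRCm38.p6 and featureCounts 2.0.3 were used; the file header names featureCounts 1.6.4 and annotation release 94, and shows no option for strand or for reads that map to several places. Total counts were 45069595 to 51592566 per library. Of 54532 genes, 32258 had a count and 17833 passed edgeR's default low-count filter.

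Counts were scaled by TMM factors and fitted in edgeR 4.0.16 (R 4.3.3) as 1 model of 6 group means with 12 residual degrees of freedom. The quasi-likelihood test was adjusted by Benjamini-Hochberg over all tested genes and called under 0.05; each SE is the size of the log2 fold change over the square root of F. Levels are CPM, compared between genes per kilobase of exon. The ratio of the pair was taken per library. The members and the gene lists were chosen with earlier results of these data known. Named genes were the pair, ribosomal protein paralogues, Grwd1, Mettl18 and the Eef1a pair, Rpl3 pseudogenes and overlapping genes, up to 3 called members of a list by size (the 2 most abundant where none was called), the 2 most abundant markers, and the 5 nearest genes in likeness. Myog was named outside this rule. Sequences came from GENCODE M21. Alternatives were RLE factors, total counts, other low-count filters, a replicate block, fits of the compared groups alone, DESeq2 1.42.0, each library left out in turn, and, chosen after seeing the data, coding transcript length and added counts of genes sharing Rpl3 windows. The authors' 4 tables of comparisons were not used here. Nothing in the labels states that each library is another mouse, so the p-values reflect the spread among libraries, which may be technical. Library pairs within a group differed by more than sampling noise.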

Additional observations from a re-analysis of the deposited data

How the results depend on the processing

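No change of Rpl3 or Rpl3l that the text calls higher or lower reversed. Scaling by total counts shifts the median of all genes by 0.11 (flox/flox reloading minus unloading), 0.15 (reloading minus control) and -0.13 (mKO minus flox/flox at reloading), and the share of higher among called genes goes to 71.8%, 80.5% and 2.42% from 53.3%, 54.3% and 21.6%. Rpl3 then changes by 1.27 in both flox/flox comparisons, and Rpl3l by -0.23 and -0.19, by 0.27 between genotypes and by 0.31 in the interaction against control. Ribosomal protein calls become 46 of 78 (flox/flox reloading minus control), 5 (flox/flox unloading minus control) and 6 (mKO minus flox/flox at reloading), assembly calls 1 and mitochondrial calls 17 (flox/flox reloading minus unloading).

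Log2 ratios of the raw counts were 2.88, 3.00 and 2.59 in mKO and 2.85, 2.88 and 1.38 in flox/flox muscle at control, unloading and reloading; per coding transcript length they were 2.85, 2.97 and 2.56 in mKO, and 2.82, 2.85 and 1.36 in flox/flox. Adding pseudogene counts gave 3.79 in mKO controls, as did adding all 26 window-sharing genes. These sums hold only reads assigned to a gene, so they cannot show the part of reads left uncounted. Differences between groups in the log2 ratio do not depend on the length used.

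In fits of the compared groups alone, ribosomal protein calls were 0 and 0 (mKO reloading minus unloading and minus control), 8 (flox/flox reloading minus unloading) and 1 (flox/flox unloading minus control); assembly calls were 1 and translation factor calls 9 in mKO reloading minus unloading, and 1 translation factor was called between genotypes. With no low-count filter, 3 assembly genes (mKO) and 5 ribosomal protein genes (flox/flox) were called at reloading minus unloading. For reloading minus control in mKO, and unloading minus control in mKO and in flox/flox, ribosomal protein calls were 4, 3 and 4 with at least 1 CPM in 3 libraries, 5, 7 and 8 with DESeq2, and 4, 3 and 6 with the replicate block. DESeq2 called 1 mitochondrial gene between genotypes.

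Deviations of same-numbered libraries had correlations of -0.07 to 0.13 (45 pairs, median 0.0244, 2 over 0.1), beside a median of -0.00428 for other numbers, and 11 of 18 libraries correlated best with their own number, a hint of pairing from the data alone. Since not every pair was over 0.1, the numbers were not used to pair samples. Leaving out 1 library, ribosomal protein calls in mKO ran from 1 to 7, 0 to 1 and 1 to 7 in reloading minus unloading, reloading minus control and unloading minus control, and in flox/flox from 5 to 8, 10 to 16 and 0 to 3. For reloading minus unloading, assembly calls ran from 1 to 6 in mKO and 4 to 7 in flox/flox, and mitochondrial calls from 9 to 14 in mKO and 5 to 11 in flox/flox. Mitochondrial calls between genotypes ran from 0 to 3 and translation factor calls between genotypes from 1 to 4. The Rpl3 interactions ran from -0.89 to -0.52 against unloading and -0.90 to -0.53 against control. The cause of these shifts was not tested.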
